A study of Mus musculus with 8 samples.

Results

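The class named B-IC holds the beta intercalated cells of the kidney, and it comprised 778 of the 77393 cells in the deposited single-cell table. Members were taken by the class name the authors gave each cell, so their number in each sample is a measurement. Beta intercalated cells lie in the connecting tubule and the cortical collecting duct. They secrete bicarbonate into the urine and take up chloride through pendrin, the exchanger encoded by Slc26a4, and the alkali-sensing receptor encoded by Insrr is another of their markers. The alpha intercalated cells (A-IC) beside them secrete acid. The files used here give no values for single genes, so neither marker could be measured in these cells and the class name stands as deposited.

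The kidneys compared were obstructed (UUO, unilateral ureteric obstruction, 2 samples) and Control (6 samples). All samples were whole kidney of C57BL/6 mice labelled as 7 weeks old, and the obstructed animals had the left ureter tied and were killed on day 7. The same treatment text stands on all samples, so Control is known from titles and disease labels alone and its handling is unstated. Of the B-IC cells, 49 came from UUO and 729 from Control kidneys.

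Libraries differed in size, with 18393 and 12930 cells in UUO 1 and 2 against 2263 to 16168 in the Control libraries. Total UMIs (unique transcript molecules) were 54962730 and 41022094 in the UUO libraries, against 4375942 to 56755823 in Control. Controls 3 and 4 had class numbers that did not pass the cut-off of 0.05 for a difference beyond counting noise, although only just (chi-square p = 0.0509). They were counted as 1 sample, which leaves 5 Control samples. The labels do not tie samples to individual mice. The p-values for UUO against Control therefore compare samples, and part of the spread between samples may be technical. Those from limma use a variance shared partly or fully over the classes. The chi-square p concerns counting noise only. Among B-IC cells 1 barcode occurred in 2 libraries, and those cells differed in their UMIs or genes. Fewer cells in the tissue and fewer cells recovered from it cannot be told apart in these data.

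B-IC cells were rare in the obstructed kidneys. They made up 0.0979% of the cells in UUO 1 (18 of 18393, exact 95% interval 0.0580 to 0.155) and 0.240% in UUO 2 (31 of 12930, 0.163 to 0.340). In Controls 1 to 6 they made up 1.64%, 1.34%, 2.56%, 2.28%, 1.63% and 1.26%. Every Control library was thus above both UUO libraries, also beyond the counting intervals. These intervals cover counting error only.

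The mean share was 0.169% ± 0.10 (SD, n = 2) in UUO, against 1.65% ± 0.444 (SD, n = 5) in Control, so that UUO had 0.102 of the Control share. In log2 odds, UUO minus Control came to -3.39 (95% interval -5.05 to -1.72), with an adjusted p of 0.000876 by limma over 28 classes. The two-sided exact permutation p was 0.0476, the smallest that 2 against 5 samples allow. In that fit 28.6% of the classes, 8 of 28, were called lower in UUO. Among the libraries over 10000 cells (both UUO, Controls 5 and 6) the difference was -3.22. Without UUO 1 it was -2.75, and limma then gave an adjusted p of 0.0513.

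**Figure D1:**
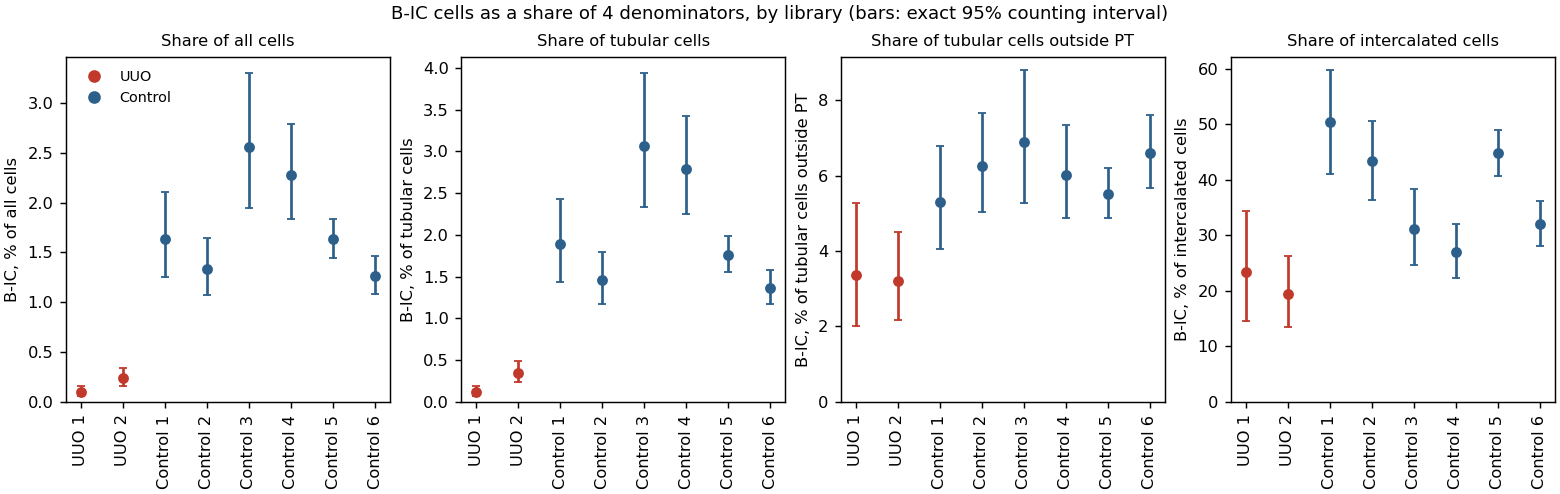
Each point is 1 library, with B-IC cells as a percentage of 4 denominators on the y axis and the exact 95% counting interval as a bar, UUO in red and Control in blue. Both UUO points lie below every Control point in each panel, with 3.36% and 3.19% of the tubular cells outside PT against 5.30% to 6.88% in the Control libraries.

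Shares of all cells also move with the immune cells, so B-IC cells were taken next as a share of the 10 tubular classes. They were 0.119% and 0.342% of the tubular cells in UUO 1 and 2, against 1.37% to 3.06% in the Control libraries. The group means were 0.231% ± 0.158 (SD, n = 2) in UUO, against 1.87% ± 0.607 (SD, n = 5) in Control, with a log2 odds difference of -3.16 (-4.71 to -1.61, limma adjusted p = 0.000529 over 10 classes, exact permutation p = 0.0476). The share of classes called lower in this fit was 60%. The proximal tubule class (PT) was called higher, by 2.74 (limma adjusted p = 0.00171). PT cells are part of this denominator, so the B-IC share also moves with their number, and that part was not tested. Among the 10 classes B-IC had the third lowest difference, after the connecting tubule cells (CNT, -3.53) and the collecting duct principal cells (CD PC, -3.29). The libraries over 10000 cells gave -2.93, which limma also called (adjusted p = 0.0483). The call was lost without UUO 1 (-2.40, limma adjusted p = 0.0660) and with TMM scaling in edgeR, which moved the difference to -0.80 (adjusted p = 0.113).

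Cells of the class PT made up most tubular cells. Leaving that class out gave a denominator in which the B-IC share of the Control kidneys was nearly constant. Proliferating proximal tubule cells, a class of their own (Prolif PT), stayed in it. B-IC cells were 3.36% of the tubular cells outside PT in UUO 1 (18 of 535, exact 95% interval 2.01 to 5.27) and 3.19% in UUO 2 (31 of 971, 2.18 to 4.50). In Controls 1 to 6 the shares were 5.30%, 6.25%, 6.88%, 6.02%, 5.51% and 6.59%. The groups did not overlap, although the counting interval of UUO 1 reached into those of Controls 1, 2, 4 and 5, and that of UUO 2 into that of Control 1.

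Over the 5 Control samples as counted, the highest share was 1.24 times the lowest, and the variation was 1.32 times that of counting error alone (chi-square per degree of freedom). That was the lowest value of the 9 classes. For CNT it was 3.95, for DCT, the distal convoluted tubule class, 24.0, and for A-IC 45.8. At a given relative spread this measure grows with the number of cells in a class. The highest share over the lowest was 1.30 for CNT, 1.32 for DCT and 3.21 for A-IC, so CNT and DCT were close to B-IC in this.

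The mean share outside PT was 3.28% ± 0.122 (SD, n = 2) in UUO, against 5.99% ± 0.561 (SD, n = 5) in Control, so that UUO had 0.547 of the Control share. The log2 odds difference was -0.88 (-1.46 to -0.31, limma adjusted p = 0.0304 over 9 classes, exact permutation p = 0.0476), and 22.2% of the classes were called lower, namely CNT and B-IC. The class the authors named Profibrotic Tubules was called higher in the same fit, by 3.07. Its cells are part of this denominator, so the B-IC share also moves with their number, and that part was not tested. The B-IC value stayed between -0.84 and -0.93 over fits that each left out 1 sample, but the limma call did not hold without UUO 1, UUO 2, Control 2 or Control 6 (adjusted p from 0.0586 to 0.0875). In the libraries over 10000 cells the difference was -0.89 (limma adjusted p = 0.310). TMM scaling gave -0.54 (edgeR adjusted p = 0.183).

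**Figure D2:**
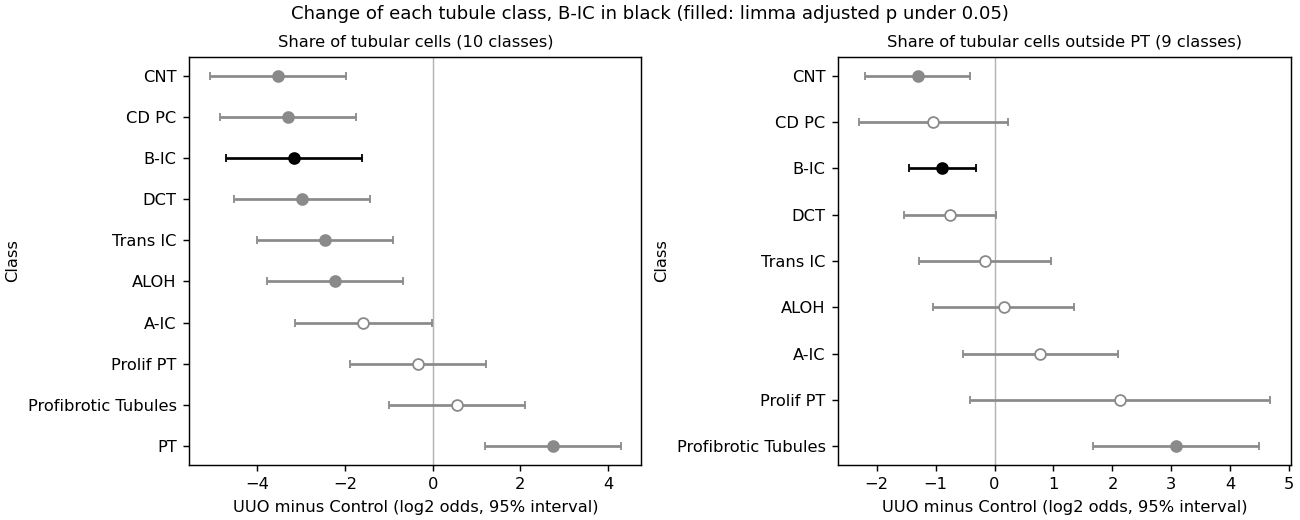
The x axis gives the UUO minus Control difference in log2 odds of each tubule class, as a share of tubular cells (left) and of tubular cells outside PT (right), with bars for the 95% limma interval and filled points for an adjusted p under 0.05. B-IC, in black, lies at -3.16 on the left and at -0.88 on the right, where its interval is the narrowest of the 9 classes.

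The authors divided the intercalated cells into B-IC, A-IC and a class named Trans IC. B-IC cells were 23.4% of these in UUO 1 (18 of 77, exact 95% interval 14.5 to 34.4) and 19.4% in UUO 2 (31 of 160, 13.6 to 26.4). In Controls 1 to 6 they were 50.4%, 43.4%, 31.2%, 26.9%, 44.8% and 32.0%. The Control samples were spread widely, yet all lay above both UUO samples. The means were 21.4% ± 2.83 (SD, n = 2) in UUO, against 39.8% ± 9.22 (SD, n = 5) in Control, with a log2 odds difference of -1.25 (two-sided exact permutation p = 0.0476). Adjusted over the 3 intercalated classes the exact p was 0.0714, which does not pass the threshold. The exact p was 0.0714 with 8 separate samples, and the libraries over 10000 cells gave -1.17, where the exact test cannot go below 0.333. A-IC cells were 56.1% ± 1.52 (SD, n = 2) of the intercalated cells in UUO, against 34.6% ± 7.82 (SD, n = 5) in Control, and Trans IC cells 22.6% ± 4.34 in UUO and 25.5% ± 4.20 in Control.

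Numbers of B-IC cells were set against 5 neighbouring classes within each sample, which does not depend on the rest of the kidney. For every 100 A-IC cells there were 40.9 and 35.2 B-IC cells in UUO 1 and 2, against 174, 125, 80.6, 57.3, 180 and 79.6 in Controls 1 to 6. The UUO values lay below all Control values. The log2 ratio of B-IC to A-IC averaged -1.38 ± 0.158 (SD, n = 2) in UUO, against 0.20 ± 0.658 (SD, n = 5) in Control, a difference of -1.58 or 0.335-fold (two-sided exact permutation p = 0.0476). Adjusted over the 5 ratios the exact p was 0.238, and it could pass only if every ratio reached the smallest p.

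Against the other 4 classes no shift was detectable with these samples. The UUO minus Control difference in the log2 ratio was -0.69 for B-IC to Trans IC (exact permutation p = 0.238), 0.12 to CD PC (0.952), 0.33 to CNT (0.429) and -0.29 to DCT (0.381), and the groups overlapped in each. Leaving out 1 sample at a time moved these differences over -1.02 to -0.36, -0.42 to 0.66, -0.32 to 0.98 and -0.67 to 0.081. With so few samples a p that misses the threshold does not show that the ratios were alike. UUO 1 and UUO 2 differed from each other here. The log2 ratio of B-IC to CNT was -0.41 in UUO 1 and -1.70 in UUO 2, against -1.54 to -1.15 in the Control libraries, so UUO 1 lay above and UUO 2 below every Control value.

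**Figure D3:**
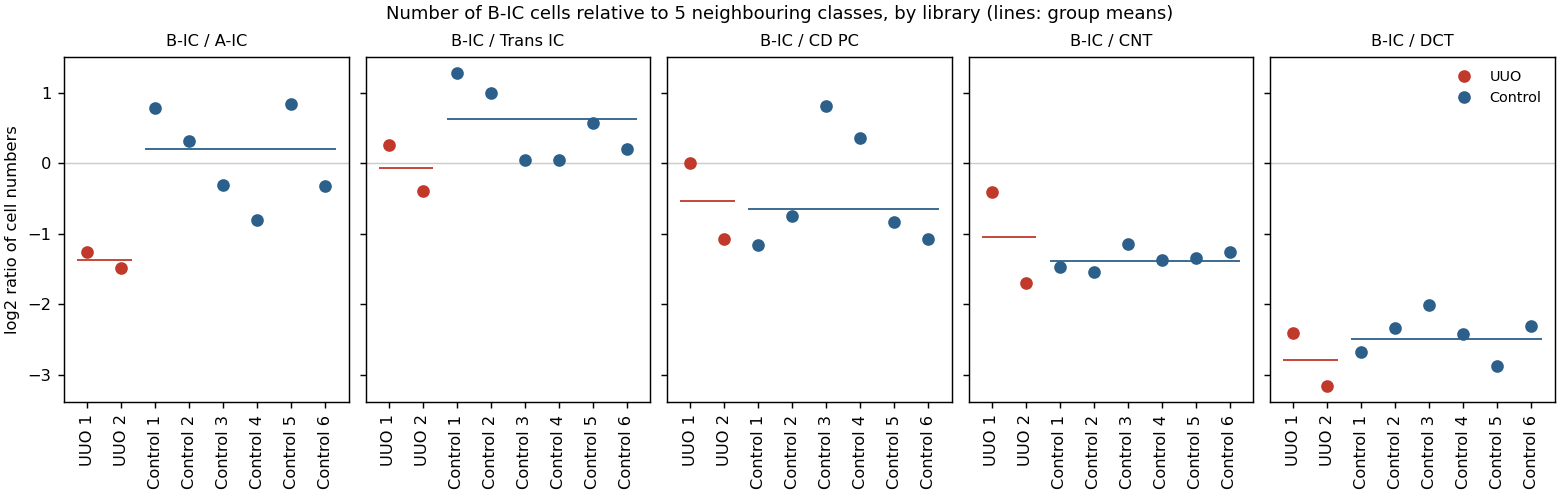
The y axis gives the log2 ratio of the number of B-IC cells to the number of cells of the class named above each panel, 1 point per library, with lines at the group means (Controls 3 and 4 counted as 1). Both UUO points lie below all Control points for A-IC, at a mean of -1.38 against 0.20, and among or around them in the other panels.

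Cells of the class carried much RNA. Pooled over libraries, B-IC had the highest median number of detected genes of the 28 classes (1978.5 over its 778 cells) and the second highest median of UMIs (5165.5), after the class Prolif Ly (5314.5). With libraries of at least 10 cells weighted equally, a weighting added for genes after the values were seen, B-IC averaged 1867 genes over 8 libraries and Prolif Ly 1778 over 4, and both ranks were the same. Within each of the 8 libraries its median UMIs were above those of A-IC, Trans IC, CD PC, CNT and DCT. The ratio to A-IC was 1.10 in UUO 1 and 1.40 in UUO 2, and its range over all libraries was 1.10 to 2.09. As the classes were made from the expression of these cells, such differences between classes are a description with no test.

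At the same depth B-IC and A-IC cells had close numbers of genes. Among cells with 4000 to 5000 UMIs the median number of genes was 1829 in B-IC (122 cells, quartiles 1683.5 and 1927.75) and 1814.5 in A-IC (120 cells, quartiles 1713 and 1928.25). It was 1747 in CD PC (125 cells, quartiles 1543 and 1913), 1639 in Trans IC (27 cells), 1528 in DCT and 1376.5 in CNT.

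Depth of B-IC cells did not differ detectably between obstructed and Control kidneys. Median UMIs were 3542 in UUO 1 and 5756 in UUO 2, against 4309, 5415, 3617, 3503, 6648.5 and 4938.5 in Controls 1 to 6, so the UUO samples fell within the Control range. The difference was -0.11 on the log2 scale (95% interval -0.73 to 0.52, limma adjusted p = 0.765 over 26 classes, exact permutation p = 0.714), in a fit that called 15.4% of the classes, none of them B-IC. The median difference over the 26 classes was 0.45. Set against the median of all cells in its sample, the B-IC difference was -0.67 (limma adjusted p = 0.243).

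Detected genes per cell did not differ detectably either. The medians were 1604.5 and 2099 genes in UUO 1 and 2, against 1473 to 2244 in the Control libraries. The log2 difference was -0.08 (-0.54 to 0.39, limma adjusted p = 0.776), where 19.2% of 26 classes were called. Genes at a given number of UMIs, taken as the residual from a line through all B-IC cells, differed by -0.06 on the log2 scale (exact permutation p = 0.429). Without UUO 1 the UMI and gene differences were 0.24 and 0.12, and without Control 5 the UMI difference was 0.0065, so neither has a stable direction.

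**Figure D4:**
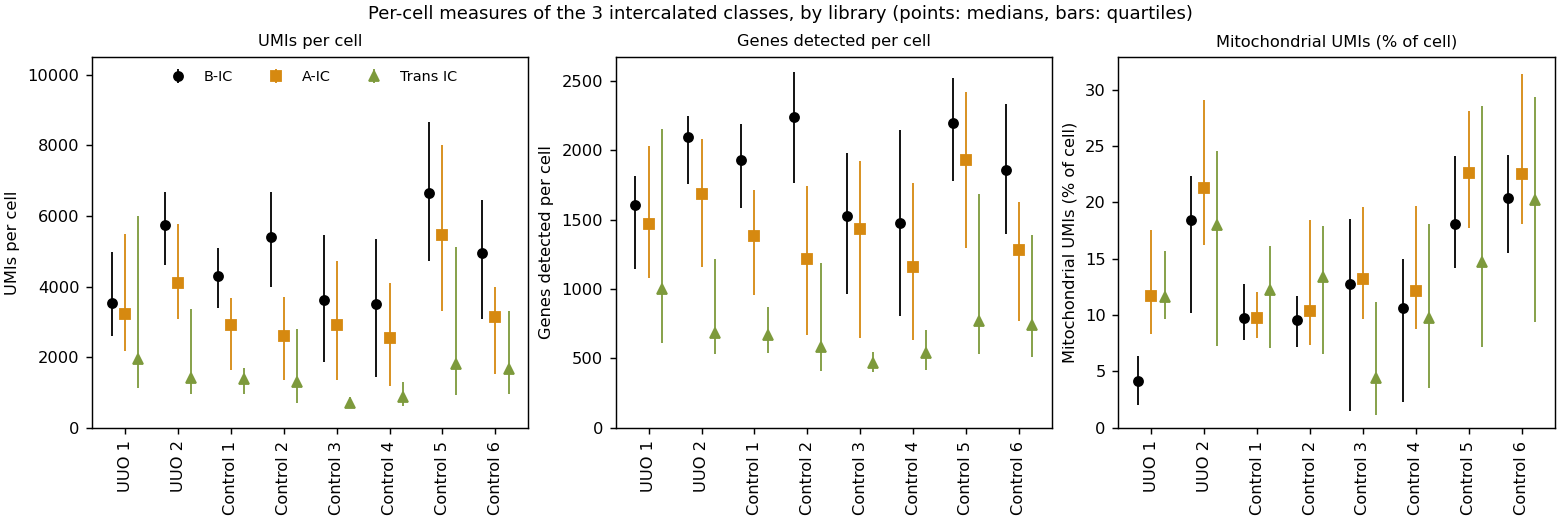
Points give the median and bars the quartiles of UMIs, genes and mitochondrial percentage per cell for B-IC (black), A-IC (orange) and Trans IC (green), by library. B-IC has the highest median UMIs and genes of the 3 classes in all 8 libraries, and UUO 1 has the lowest B-IC mitochondrial median, 4.14%.

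Intercalated cells are rich in mitochondria, and the percentage of mitochondrial UMIs varied strongly between libraries. The B-IC median was 4.14% in UUO 1 and 18.4% in UUO 2, against 9.73%, 9.54%, 12.7%, 10.7%, 18.1% and 20.4% in Controls 1 to 6. The UUO libraries thus lay at the bottom and near the top of the range. In UUO 1, 11 of 18 B-IC cells had under 5% mitochondrial UMIs, against 3 of 31 in UUO 2. The same library had medians of 11.7% in A-IC and 13.4% over all cells, both well above its B-IC value. In the other 7 libraries the B-IC median was above that of all cells, in UUO 2 by a factor of 1.56.

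The UUO minus Control difference was -2.45 percentage points (95% interval -13.7 to 8.85, limma adjusted p = 0.992). Limma called 0% of the 26 classes for this measure, with 0 at an unadjusted p under 0.05, and the exact permutation p for B-IC was 0.667. Without UUO 1 the difference was 4.69 points and without UUO 2 it was -9.59. B-IC had a lower median percentage than A-IC in all 8 libraries, by a factor of 0.356 in UUO 1, 0.865 in UUO 2 and up to 0.997 in Control.

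In the authors' embedding (UMAP, a map that places cells of like expression together, with no unit) B-IC lay beside the other intercalated classes. The distance between class medians was 1.21 to Trans IC, 2.44 to A-IC and 5.36 to CD PC, the next nearest of the mapped classes. Among the 15 nearest cells of a B-IC cell, 84.9% on average were B-IC, 14.1% Trans IC, 0.437% CD PC and 0.411% A-IC. At least 1 Trans IC cell was among the 15 nearest for 550 of the 778 B-IC cells. Pooled over cells, the Trans IC share of the nearest cells was 9.52% in UUO and 14.4% in Control, but the UUO libraries differed. Cells with a Trans IC cell among the nearest were 83.3% in UUO 1 and 51.6% in UUO 2, against 59.3% to 82.8% in the Control libraries.

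UUO and Control B-IC cells differed in their median position on the map. The sample medians on the first axis were 10.7 and 10.8 in UUO 1 and 2, against 11.1 to 11.2 in the Control libraries. The distance between the group means of sample medians in both axes was 0.415 (exact permutation p = 0.0476), nearly all of it on the first axis. With sample means in place of medians it was 0.304 (exact p = 0.143), and in the libraries over 10000 cells 0.359, where the exact p cannot go below 0.333.

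Along the first axis Control cells were most frequent at 11.4 to 11.6, with a smaller peak between 10 and 11. Between 10 and 11, bounds chosen after the values were seen, lay 12 of 18 B-IC cells of UUO 1 and 22 of 31 of UUO 2. That is 66.7% and 71.0%, against 28.8%, 32.6%, 29.3%, 23.3%, 39.0% and 39.0% in Controls 1 to 6. Above 11 lay 27.8% and 29.0% of the cells of UUO 1 and 2, against 53.5% to 71.2% of those in the Control libraries. The distance has no unit, and these shares are given with no test.

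**Figure D5:**
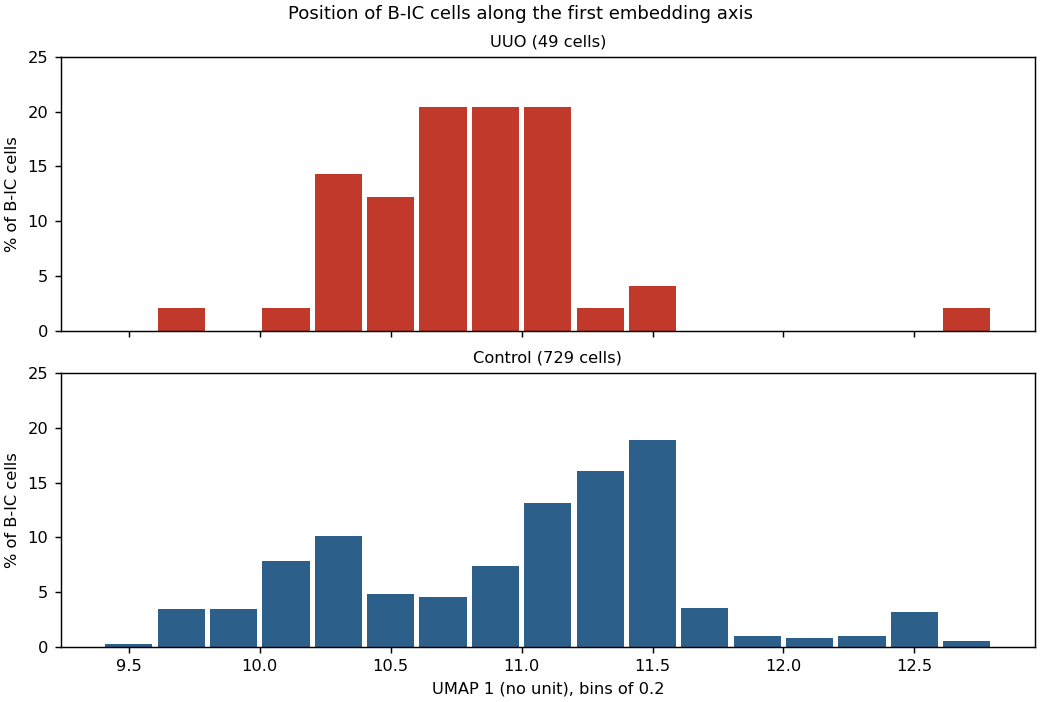
Bars give the percentage of B-IC cells of each group in bins of 0.2 along the first embedding axis, with UUO above and Control below. In each of the 3 bins from 10.6 to 11.2 lie 20.4% of the UUO cells, while the fullest Control bin, 11.4 to 11.6, holds 18.9% of the Control cells and 4.08% of the UUO cells.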

How the data were processed

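Libraries were made with a 10x Chromium 3′ kit, per the labels' protocols. The tools listed in the submitters' processing notes are Seurat 4.0.1 and Cell Ranger 6.0.1, with build mm10. Cell filters and the treatment of doublets are not stated there, and cells were kept as deposited. The deposited table gives, for each cell, UMIs and detected genes as counts made by the authors and not normalized, and the mitochondrial share as a percent of UMIs, per the file headers. Cells ran up to 2998 genes and 50.0% mitochondrial UMIs. The deposited UMAP coordinates are a score with no unit and cover 25200 cells, 0 of them PT.

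Members, lists and tests were chosen with earlier results of these data known. Shares were compared per sample as log2((n + 0.5)/(N - n + 0.5)) with limma 3.58.1 in R 4.3.3 (Benjamini-Hochberg over classes, threshold 0.05) and by two-sided exact permutation over the 21 ways of choosing 2 of 7 samples. In the fits over all cells and tubular cells the variance prior took over fully, with 140 and 50 degrees of freedom. Those intervals and limma p-values thus do not measure the spread of B-IC itself. The fits of UMIs and genes per cell, with 58.5 and 61.3 degrees of freedom, also rest largely on the prior. Ratios to the neighbours A-IC, Trans IC, CD PC, CNT and DCT, named by anatomy, used the exact test. Per-cell measures used sample medians of at least 10 cells. Alternatives included edgeR 4.0.16 on cell numbers. The functions were tested on simulated data.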

Additional observations from a re-analysis of the deposited data

Results flagged for a closer look

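The change of B-IC cells was flagged against that of A-IC cells in the same samples, on the exact permutation p before adjustment. After adjustment it does not pass the threshold. The log2 ratio of their numbers was lower by 1.58 in UUO (-1.58, two-sided exact permutation p = 0.0476 before and 0.238 after adjustment over the 5 ratios), in both UUO samples against all 5 Control samples. The ratio also moves with the number of A-IC cells. As a share of tubular cells the A-IC difference was -1.58 (limma adjusted p = 0.0584), against -3.16 for B-IC. Outside PT it was 0.78 (limma adjusted p = 0.266), against -0.88 for B-IC. The part of cell recovery in the ratio was not tested.

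Among 14 measures of B-IC cells examined over the 5 Control samples, 1 had a sample far from the others. The log2 ratio of B-IC to CD PC was 0.52 in the pooled Controls 3 and 4, and the next highest Control value was -0.75. The gap was 0.758 of the whole range, above the limit of 0.71, which chance passes in about 1 of 20 groups.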

How the results depend on the processing

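Over 193 alternative values of 14 results, 149 kept direction and side of the threshold. The share of all cells was called lower in every alternative run except without UUO 1, and ranged from -4.03 to -2.75 over samples left out. For the share of tubular cells the range was -3.91 to -2.40, and TMM scaling (-0.80) and the replicate block (-3.04) lost the call. For tubular cells outside PT the range was -0.93 to -0.84, and the call was lost on the arcsine square root scale (-0.065), with at least 1000 UMIs (-1.18), with TMM scaling (-0.54), in libraries over 10000 cells (-0.89) and with the replicate block (-0.83). The share of intercalated cells ranged from -1.43 to -1.07, with -1.14 for 8 separate samples, -1.17 for libraries over 10000 cells and -1.69 with the replicate block. The embedding distance ranged from 0.355 to 0.501, with 0.359 in libraries over 10000 cells, 0.473 with the block and 0.304 for mean coordinates. With 1 sample fewer, 2 against 2 or 2 pairs the exact test cannot pass, so a lost call there says nothing of stability. For the share of intercalated cells, however, the exact p was 0.133 without Control 1, 2 or 5, where 0.0667 was possible. With 8 separate samples it was 0.0714, where 0.0357 was possible.

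Values not called changed sign in some settings. Over samples left out they ran from -0.46 to 0.24 for UMIs, -0.27 to 0.12 for genes, -9.59 to 4.69 points for mitochondrial percentage, -0.42 to 0.66 for the ratio to CD PC, -0.32 to 0.98 to CNT and -0.67 to 0.081 to DCT. The ratio to CD PC was -0.099 with 8 separate samples, genes at matched UMIs 0.017 in libraries over 10000 cells, and mitochondrial percentage 1.65 with the block. The cause was not tested. The 2 sample numbers shared by the groups do not pair samples by any label, and deviations of same-numbered samples correlated at -0.33 and 0.055 across classes. A minimum of 20 cells could not be fitted for B-IC, as UUO 1 holds 18, and matching genes within a low UMI window was not run, as UUO held 3 and 1 such cells. Depth is limited by the 49 UUO cells.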

Other observations

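B-IC cells with under 5% mitochondrial UMIs numbered 14 of 49 in UUO and 72 of 729 in Control. Pooled over libraries, those of UUO had a median of 3756.5 UMIs and those of Control 1873. The remaining B-IC cells had 5409 in UUO and 5526 in Control. Of the cells under 5%, 11 came from UUO 1 and 46 from Controls 3 and 4, so the pooled medians lean on these libraries. Cells under 5% were 61.1% and 9.68% of the B-IC cells in UUO 1 and 2. In Controls 3 and 4 they were 31.0% and 31.1%, and 2.33% to 7.56% in the other Control libraries.

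No cell in the table has more than 2998 genes, and B-IC was among the classes with many cells near that number. Pooled over libraries 19.0% of B-IC cells and 17.5% of Prolif Ly cells had at least 2500 genes, while with libraries weighted equally, a weighting added after the values were seen, the shares were 15.1% and 15.5%. In B-IC the share was 5 of 49 in UUO (10.2%, exact 95% interval 3.40 to 22.2) and 143 of 729 in Control (19.6%, 16.8 to 22.7), and over all cells 2.16% in UUO and 1.37% in Control. At 2800 genes it was 6.12% of B-IC cells in UUO (1.28 to 16.9) and 6.58% in Control (4.89 to 8.64), so the gap between the groups depends on the limit. These intervals pool the cells of each group and cover counting error only, not the spread between libraries. The limits were chosen after the values were seen and the shares are given with no test.

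Across single B-IC cells the rank correlation of UMIs with mitochondrial percentage was -0.07 in UUO 1 (18 cells) and 0.13 in UUO 2 (31 cells), and ran from -0.25 in Control 2 to 0.48 in Control 3. Both measures share the UMIs of the cell.

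When the 15 nearest B-IC cells were taken from other libraries only, 9.63% of those near UUO 1 cells came from UUO 2, which held 4.08% of the cells to choose from. For UUO 2 cells 5.81% came from UUO 1, against 2.41%. Among neighbours of Control cells the share of UUO cells was below that available in Controls 1 to 5, but unevenly. It was 3.63% against 7.12% in Control 4, and 9.42% against 9.53% in Control 5, the Control library with most cells. In Control 6 it was above, at 9.26% against 8.09%.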
